A study of Mus musculus with 17 samples.

Results

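The genes described here encode the subunits of the 4 respiratory chain complexes and of the mitochondrial ATP synthase, as expressed in cultured mouse pancreatic stellate cells, a fibroblast precursor of the pancreas. Members were protein-coding genes chosen by symbol: those starting with Nduf, Uqcr, Cox4 to Cox8, Atp5, mt-Nd, mt-Co, mt-Atp or mt-Cytb, together with Sdha, Sdhb, Sdhc and Sdhd. Of 107 such genes, 103 had at least 10 counts in at least 4 libraries, out of 35896 gene IDs measured, of which 13987 passed the same count rule. Of these members, 90 are nuclear genes and 13 are genes of the mitochondrial DNA. The nuclear genes divide into 36 of complex I, 8 complex I assembly factors whose symbols start with Ndufaf, 4 of complex II, 8 of complex III, 17 of complex IV (counting Ndufa4 and Ndufa4l2) and 17 named for the ATP synthase. The 4 genes left out were Cox7b2, Cox8b, Cox8c and a second gene ID for Atp5o, and each had 0 counts. The symbols do not catch every subunit: Cyc1 of complex III, for example, starts otherwise and was counted with another list.

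RNA was sequenced from 17 libraries of 2 wild-type C57BL/6J lines, PSC4 and PSC5, all grown in Matrigel and collected on day 4 of treatment. Control medium was given to 5 of the libraries (PSC4 replicates 1, 2 and 3, PSC5 replicates 1 and 2) and TGF-beta at 20 ng/mL to 4 (PSC4 replicates 2 and 3, PSC5 replicates 1 and 2). Medium conditioned by pancreatic tumour organoids (CM) was given to 4 libraries and the same kind of medium plus neratinib at 300 nM, which blocks ERBB kinases, to 4 (in each, replicates 1 and 2 of both lines). In the last 2 groups number 1 carries the medium code T8 and number 2 the code T6. Library totals lay between 22168960 and 29421451 counts. Each number within a line goes with its own passage in the labels, which do not say that libraries came from separate cultures, so p-values measure the spread between these samples. With 2 lines, the values describe these lines.

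Oxidative phosphorylation passes electrons from NADH (complex I) or succinate (complex II) through ubiquinone, complex III and cytochrome c to oxygen at complex IV, and the proton gradient built on the way drives the ATP synthase. All complexes but complex II combine nuclear and mitochondrial gene products, so the proteins of 2 genomes are assembled together. Several small nuclear subunits of complex IV exist as alternative isoforms made from separate genes, some of them known from muscle, testis or hypoxic cells, and these isoforms are the main way in which the make-up of the complex differs between tissues.

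Cell identity was read from 10 stellate cell and fibroblast markers, including Col1a1, Pdgfrb and Des. All 10 had counts in every group, with a summed level of 4075 to 20440 CPM (counts scaled to library size) per library. Their levels were uneven: Col1a1 held 422.3 to 10480 CPM by library, Lum 0.326 to 23.3 CPM and Des 0.584 to 3.71 CPM. Des and Lum thus added little to the sum. Of 15 epithelial markers 12 had a count in a control library, with sums of 16.95 to 27.91 CPM, against 15 of 15 and 22.97 to 189.2 CPM in CM and 15 of 15 and 10.05 to 332.3 CPM in CM with neratinib. Of 14 tested, 10 were called higher in CM and 12 in CM with neratinib against control, beside 7.05% and 22.2% of all genes, and 0 lower. In these groups the sums were 151.5 to 332.3 CPM with medium code T6 and 10.05 to 53.74 CPM with T8. The 8 macrophage and leukocyte markers, of which 2 or 3 were at 0 in each group, summed to 14.33 to 17.73 CPM in control, 7.87 to 9.02 in TGF-beta, up to 53.24 in CM (each library above every control library) and 35.88 to 68.18 in CM with neratinib. Most of this sum was Cd14, at a mean of 12.9 CPM in control, 4.67 in TGF-beta, 37.4 in CM and 49.4 in CM with neratinib, and Cd14 was the 1 marker of this list called in either CM group against control. The part of other cell types in the results was not tested, and in bulk RNA fewer cells of a type and less RNA per cell cannot be told apart. The 3 libraries labelled PSC4 replicate 1 (control, CM, CM with neratinib) stood apart from their line. After removal of group means, their gene-wise deviations correlated with PSC5 libraries of other groups at a median r of 0.20 (18 pairs) and with the other PSC4 libraries at -0.31 (14 pairs), so results that change without them are given both ways.

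Across the 5 comparisons 53 of 90 nuclear members (58.9%) passed the test nowhere, against 31.1% of all genes tested, and 37 passed at least once, where called means an adjusted p under 0.05 in edgeR's quasi-likelihood test, adjusted over 13923 genes. Of 54 calls of nuclear members 7 exceeded a 2-fold change (1 on the log2 scale), against 6026 (28.2%) of the 21338 calls over all genes, and all 7 fell on 4 alternative isoform genes of complex IV: Cox6a2, Cox6b2, Cox7a1 and Ndufa4l2. Of 10 core subunits named whatever their values, 8 were called in none of the 5 comparisons, with log2 fold changes between -0.17 and 0.23: Ndufs1 and Ndufv1 of complex I, Sdha and Sdhb of complex II, Uqcrfs1 of complex III, Cox5b of complex IV, and Atp5a1 and Atp5b of the ATP synthase catalytic head. Ndufs1, the iron-sulphur subunit at the entry of complex I, stood at 86.8 ± 3.63 CPM in control (SD, n = 5), 84.0 ± 3.48 in TGF-beta, 84.6 ± 4.52 in CM and 84.7 ± 5.66 in CM with neratinib (SD, n = 4 each). The other 2 core subunits were Uqcrc1 and Cox5a. With a replicate block, a term for each line and replicate number, 4 of the 8 were called: Atp5a1, Atp5b and Sdha in 2 comparisons each and Sdhb in 1, with log2 fold changes from -0.24 to 0.29. The other tallies of this paragraph come from the fit without the block.

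**Figure D1:**
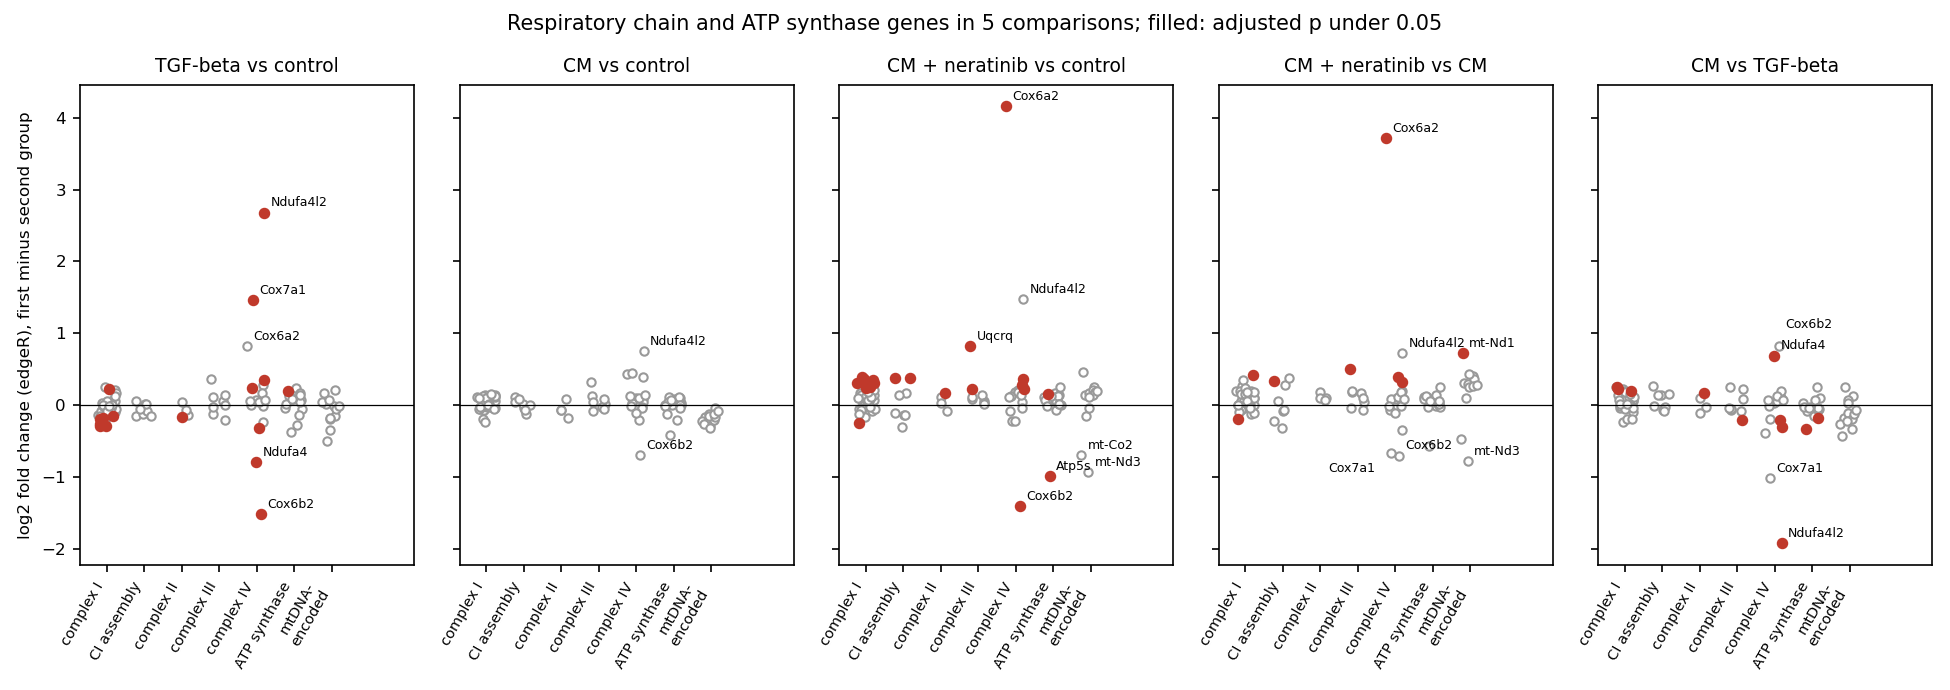
Log2 fold change of each of the 103 members (y axis, first minus second group) by complex (x axis) in 5 comparisons, with called members filled. Most members lie near 0, and the outlying points are Cox6a2, Ndufa4l2, Cox7a1 and Cox6b2 of complex IV, with Ndufa4 below 0 in TGF-beta.

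The first comparison asks how TGF-beta, which turns stellate cells towards myofibroblasts, moves these genes. Of 90 nuclear members 6 rose and 10 fell, or 6.67% and 11.1%, against 19.7% of all genes tested that rose and 20.5% that fell. The median log2 fold change of the nuclear members was -0.01, and that of all genes tested -0.02. The summed fibroblast markers were higher as well, at 5447 to 6979 CPM in control and 9907 to 20440 CPM in TGF-beta, and the part of this in the calls was not tested. Upper-quartile scaling gave 3 higher and 12 lower and RLE scaling 8 and 8, so the balance of directions depends on the scaling. In complex I 6 of 36 members (16.7%) were lower and 1 (2.78%) higher, both shares below those of all genes. Complex IV had 4 of 17 higher and 3 lower, the ATP synthase 1 of 17 higher, complex II 1 of 4 lower, and complex III and the assembly factors had no call in edgeR (2 of 8 and 0 of 8 at an unadjusted p under 0.05, and 2 and 0 called by DESeq2). Of all 13923 genes tested, 6695 had an unadjusted p under 0.05, and DESeq2 called 43.4%. With the replicate block 31 nuclear members were called, 18 higher and 13 lower, beside 50.9% of all genes. All 16 calls of the fit without the block were among them. Without the 3 libraries labelled PSC4 replicate 1, 25 were called, 14 higher and 11 lower, beside 49.4% of all genes. The count was 9 without TGF-beta PSC4 replicate 2 and 10 without control PSC5 replicate 1.

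Ndufa4 fell most among the well-expressed members. Its protein was first counted with complex I and is now placed in complex IV. Control libraries held 102.8, 79.9 and 83.2 CPM (PSC4 replicates 1, 2 and 3) and 96.1 and 99.7 CPM (PSC5 replicates 1 and 2). TGF-beta libraries held 49.0 and 53.6 CPM (PSC4 replicates 2 and 3) and 51.0 and 59.7 CPM (PSC5). Every TGF-beta library was below every control library. The log2 fold change was -0.80 ± 0.10 (SE), a 1.74-fold lower level, with an adjusted p of 2.1e-05 in edgeR. CM libraries held 92.9 and 80.0 CPM (PSC4 replicates 1 and 2) and 79.2 and 91.0 CPM (PSC5), and libraries of CM with neratinib held 85.4, 68.8, 72.2 and 90.7 CPM in the same order. Neither group overlapped the TGF-beta group, and Ndufa4 was 0.69 ± 0.10 higher (log2, SE) in CM than in TGF-beta (edgeR adjusted p = 1.3e-04).

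Ndufa4l2, the paralogue known as a hypoxia-induced gene, moved the other way at a far lower level. Control libraries held 0.398, 0.250, 0.141, 0.216 and 0.319 CPM in the order given above. TGF-beta libraries held 2.03 and 0.470 CPM in PSC4 and 4.00 and 0.244 CPM in PSC5. TGF-beta replicates thus spread widely, and the lowest lay within the control range. The log2 fold change was 2.68 ± 0.69 (SE; edgeR adjusted p = 0.0061). It was 1.57 without TGF-beta PSC5 replicate 1, the lowest value over all alternatives, and the largest adjusted p over them was 0.047. Per kilobase of gene model Ndufa4l2 made up 0.355% ± 0.107 (SD, n = 5) of the pair's level in control and 3.89% ± 3.94 (SD, n = 4) in TGF-beta. The difference between CM and TGF-beta was -1.93 ± 0.71 (SE; edgeR adjusted p = 0.047) and lost its call in 10 of 21 alternatives, with adjusted p up to 0.31.

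Further isoforms changed at low level. Cox7a1, the heart and muscle isoform of subunit VIIa, held 0.119 to 0.388 CPM in control and 0.714, 0.217, 1.81 and 0.407 CPM in TGF-beta (PSC4 replicates 2 and 3, PSC5 replicates 1 and 2), and the groups overlapped. It rose by 1.46 ± 0.51 (log2, SE; edgeR adjusted p = 0.033), and without TGF-beta PSC5 replicate 1 the value was 0.79 (edgeR adjusted p = 0.21). The call was lost in 9 of 20 alternatives, among them the removal of the 3 libraries labelled PSC4 replicate 1 (edgeR adjusted p = 0.060). Cox6b2, an isoform known from testis, had 3 to 19 counts in a library. It held 0.539 to 0.755 CPM in control and 0.122 to 0.344 CPM in TGF-beta without overlap, a log2 fold change of -1.52 ± 0.32 (SE; edgeR adjusted p = 0.0015). Their widespread partners Cox7a2 and Cox6b1 were called in no comparison. Per kilobase the minor isoform made up at most 3.88% of the Cox7a pair and 0.591% of the Cox6b pair in any library. Cox4i2, the isoform of subunit IV linked to low oxygen, held 0.122 to 2.02 CPM across all libraries and was also called in no comparison.

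Among other members of complex IV, Cox5a, which encodes a heme-free subunit facing the matrix, rose in TGF-beta. Control libraries held 70.2, 59.9, 62.1, 62.6 and 63.7 CPM, and TGF-beta libraries 77.1, 83.7, 73.8 and 88.2 CPM, with no overlap. The log2 fold change was 0.35 ± 0.09 (SE; edgeR adjusted p = 0.0083). Cox6a1, the widespread isoform of subunit VIa, rose by 0.23 ± 0.08 (SE; edgeR adjusted p = 0.029) with overlapping groups, and its call was lost in 6 of 20 alternatives. Cox7a2l encodes SCAF1, described as joining complex III to complex IV in supercomplexes, and whether it does so in this strain was not examined. It held 119.2, 111.0, 110.0, 130.4 and 116.0 CPM in control and 100.7, 93.7, 95.5 and 85.4 CPM in TGF-beta. It fell by 0.33 on the log2 scale (SE 0.07; edgeR adjusted p = 0.0027), and the groups did not overlap.

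Promoter windows are shown because Ndufa4, Cox5a and Cox6a1 changed in TGF-beta in different directions. Each runs from 250 bases before to 50 bases after the RefSeq gene start, 5′ to 3′ on the gene's strand in GRCm38.p6, with matches to the motif of NRF1, a factor known to drive respiratory genes, in capitals.
Cox6a1, chr5:115348909-115349208, minus strand: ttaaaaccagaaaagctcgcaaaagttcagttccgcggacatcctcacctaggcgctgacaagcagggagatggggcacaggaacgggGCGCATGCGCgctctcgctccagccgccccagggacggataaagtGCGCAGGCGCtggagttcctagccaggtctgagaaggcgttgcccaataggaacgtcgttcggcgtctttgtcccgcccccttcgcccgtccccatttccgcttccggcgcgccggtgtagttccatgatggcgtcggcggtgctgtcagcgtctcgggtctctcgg
Cox5a, chr9:57520982-57521281, plus strand: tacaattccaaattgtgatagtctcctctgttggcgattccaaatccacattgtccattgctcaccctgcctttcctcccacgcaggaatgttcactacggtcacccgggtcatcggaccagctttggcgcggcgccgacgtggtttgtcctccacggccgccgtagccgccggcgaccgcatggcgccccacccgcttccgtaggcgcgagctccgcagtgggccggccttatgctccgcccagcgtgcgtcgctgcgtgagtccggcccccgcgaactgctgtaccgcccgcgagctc
Ndufa4, chr6:11907401-11907700, minus strand: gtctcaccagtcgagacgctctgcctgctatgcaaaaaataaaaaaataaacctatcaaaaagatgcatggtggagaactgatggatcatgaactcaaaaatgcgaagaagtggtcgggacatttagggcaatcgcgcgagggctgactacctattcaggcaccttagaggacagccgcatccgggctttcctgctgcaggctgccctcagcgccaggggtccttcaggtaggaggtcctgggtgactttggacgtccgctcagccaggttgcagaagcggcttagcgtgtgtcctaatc
Both strands were searched for 3 motifs: NRF1 (GCGCA and GCGC with any 1 base between), an ETS motif (CCGGAAGT) and YY1 (AAGATGGCG). The Cox6a1 window held 2 NRF1 matches, and the windows of Cox5a and Ndufa4 held no match to any of the 3. Windows were found for 72 of the 90 nuclear members. NRF1 matches stood in 19 of them (26.4%), against 5.19% of 27025 genes with a window of that length. YY1 matches stood in 8 (11.1%), against 1.64%, and ETS matches in 5 (6.94%), against 4.31%. The 27025 genes were not filtered for expression, while members had passed the count rule, so the sets compared are unlike. A match is a stretch of letters and not a shown binding site. No window was found for Cox6a2, Ndufa4l2, Uqcrq or Atp5mpl, so these genes were not searched.

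**Figure D2:**
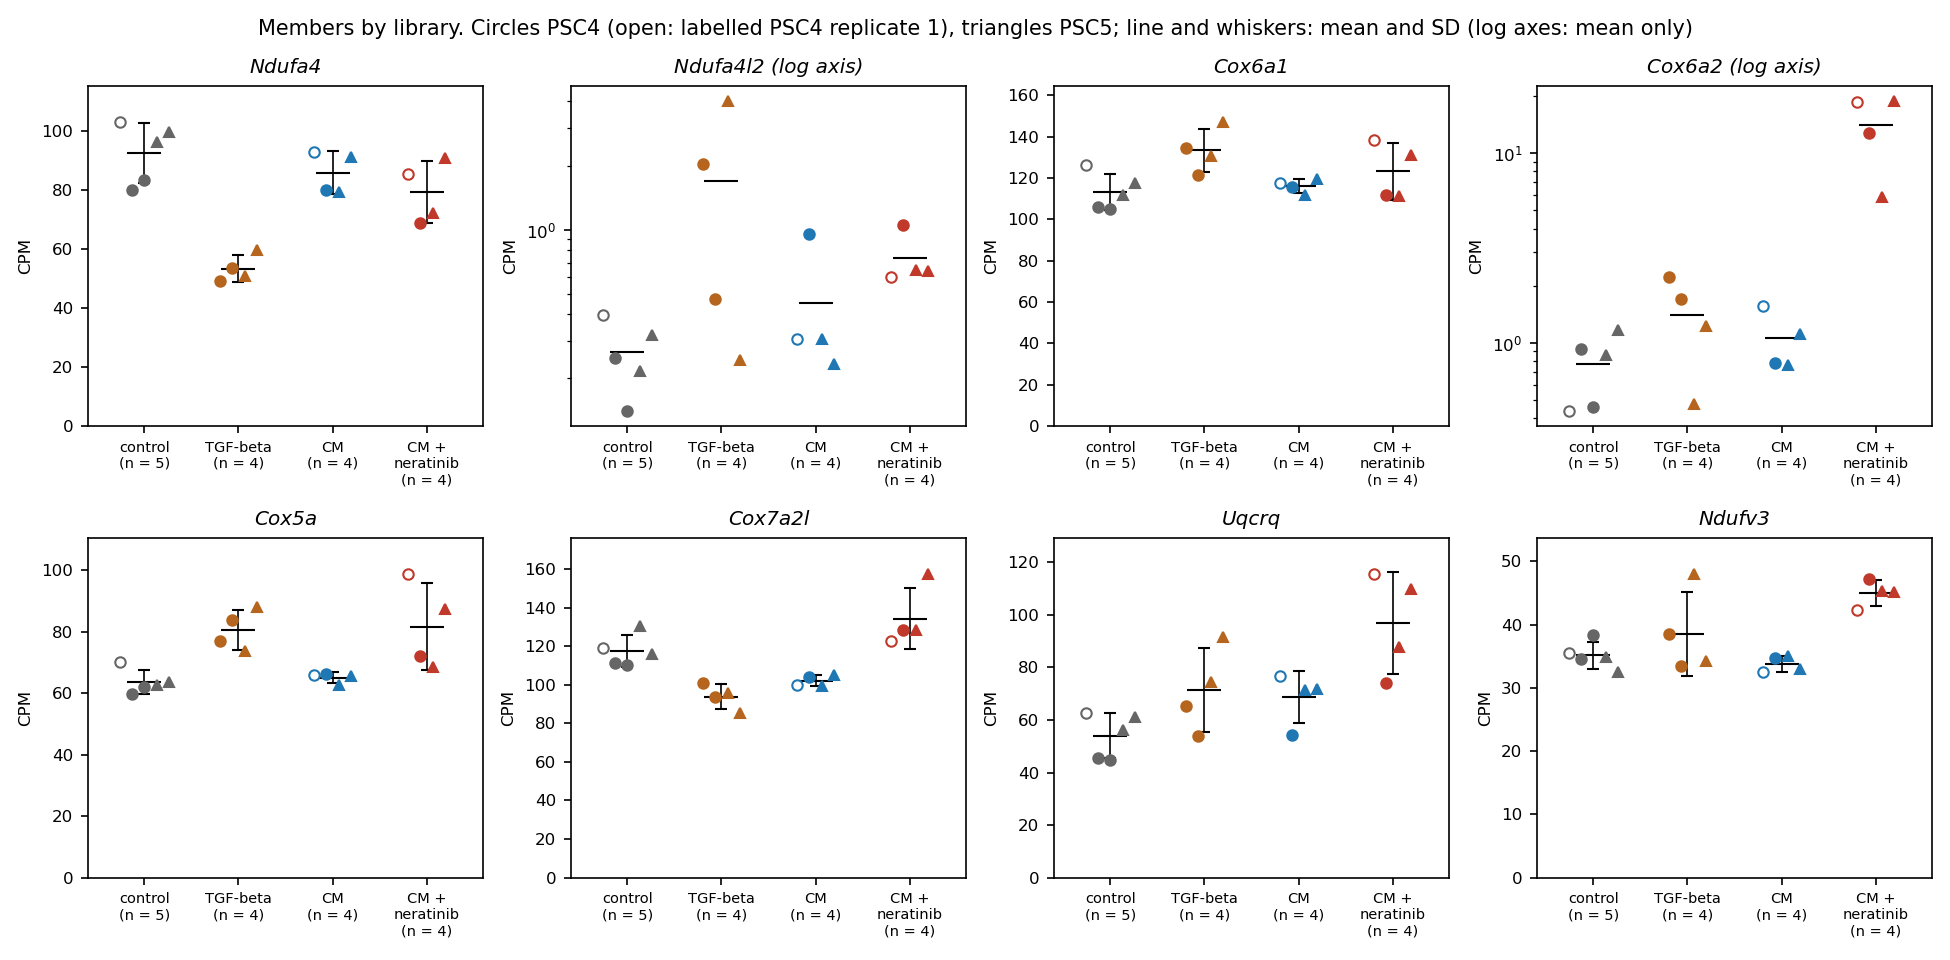
CPM (y axis) of 8 members in each library by group (x axis), with group means and SD and with open circles for libraries labelled PSC4 replicate 1. Ndufa4 in TGF-beta lies between 49.0 and 59.7 CPM, below all other libraries, and Cox6a2 in CM with neratinib lies between 5.84 and 18.7 CPM, above all others.

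Complex I calls in TGF-beta were small. Ndufs4, an accessory subunit needed for assembly of the NADH-binding module, fell by 0.26 ± 0.06 (log2, SE), from 33.7 to 28.4 CPM on average (edgeR adjusted p = 0.0033). Ndufa11 and Ndufb2 of the membrane arm fell by 0.29 and 0.30 (edgeR adjusted p = 0.025 and 0.034). Ndufs8, which holds iron-sulphur clusters near the ubiquinone site, rose by 0.22 (edgeR adjusted p = 0.029), the 1 complex I member that did. Ndufa11 lost its call in 4, Ndufb2 in 8 and Ndufs8 in 8 of 20 alternatives, and Ndufs4 in none. Of the ATP synthase, Atp5mpl, a small membrane subunit, rose by 0.20 ± 0.06 (SE; edgeR adjusted p = 0.010). Sdhc, a membrane anchor of complex II, fell by 0.17 (edgeR adjusted p = 0.018), and is named here after its values were seen.

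The second comparison asks what tumour organoid medium does to these genes. No nuclear member was called by edgeR between CM and control, against 7.05% of all genes that rose and 7.14% that fell. An unadjusted p under 0.05 was found for 9 of 90, beside 4001 of the 13923 genes tested. DESeq2 called 3 (Ndufb11 and Sdha lower, Cox8a higher) and edgeR with the replicate block 3 (Ndufb11 and Sdha lower, Uqcrq higher), beside 19.4% and 23.3% of all genes. Without the 3 libraries labelled PSC4 replicate 1 edgeR called 2, beside 18.1% of all genes. The median log2 fold change was 0.02, and -0.00 over all genes. Uqcrq, a small subunit of complex III, held 62.6, 45.5, 44.9, 56.4 and 61.0 CPM in control and 76.9, 54.2, 71.5 and 72.0 CPM in CM (PSC4 replicates 1 and 2, PSC5 replicates 1 and 2). The groups overlapped, and the difference was 0.33 ± 0.15 (log2, SE; edgeR adjusted p = 0.17). With the replicate block it was 0.26 (edgeR adjusted p = 0.012).

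In CM with neratinib against control, of 90 nuclear members 17 rose (18.9%) and 3 fell (3.33%), beside 22.2% of all genes that rose and 20.9% that fell. Log2 fold changes were above 0 for 66 of the 90 and for 7027 of the 13923 genes tested, with medians of 0.10 and 0.01. With upper-quartile scaling 9 rose and 7 fell, so the excess of rises depends on the scaling. Rises came from complex I (7 of 36), its assembly factors (2 of 8), complex II (1 of 4), complex III (2 of 8), complex IV (4 of 17) and the ATP synthase (1 of 17). The 3 that fell were Ndufb3 of complex I, Cox6b2 and Atp5s, the last named after its values were seen. With the replicate block 28 were called, 24 higher and 4 lower, beside 52.4% of all genes. The epithelial and macrophage sums given above also differed between these groups, and their part was not tested.

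Cox6a2, the heart and skeletal muscle isoform of subunit VIa, had the largest fold change of all members. Control libraries held 0.437, 0.930, 0.458, 0.862 and 1.17 CPM. CM libraries held 1.56 and 0.776 CPM in PSC4 and 0.765 and 1.11 CPM in PSC5. Libraries of CM with neratinib held 18.6 and 12.8 CPM in PSC4 and 5.84 and 18.7 CPM in PSC5. All 4 were above every other library of the study, including the TGF-beta libraries at 0.473 to 2.22 CPM. Cox6a2 (ENSMUSG00000030785, chromosome 7, 128205435 to 128206387, minus strand, GRCm38) was 17.9-fold higher than in control (log2 4.16 ± 0.45, SE; edgeR adjusted p = 1.2e-05) and 13.2-fold higher than in CM (log2 3.72 ± 0.48, SE; edgeR adjusted p = 2.4e-04). Among media coded T8, with 2 libraries of each kind, the adjusted p against CM was 0.051 in edgeR. In the same 4 libraries of CM with neratinib the epithelial markers summed to 10.05, 151.5, 53.7 and 332.3 CPM, and their part in the Cox6a2 values was not tested.

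Set against its widespread partner, Cox6a2 stayed the lesser isoform. Per kilobase of gene model its mean level was 20.6 CPM in CM with neratinib, beside 175.4 for Cox6a1. It made up 10.2% ± 3.499 of the pair there (SD, n = 4), with 5.14% to 12.9% by library, and 0.702% ± 0.287 in control (SD, n = 5), 1.08% ± 0.585 in TGF-beta and 0.923% ± 0.311 in CM (SD, n = 4 each). Cox6a1 itself was not called between CM with neratinib and CM (log2 0.09, edgeR adjusted p = 0.51).

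Against control, Uqcrq rose furthest after Cox6a2 among called members with at least 10 CPM. Libraries of CM with neratinib held 115.6 and 74.0 CPM in PSC4 and 87.7 and 110.0 CPM in PSC5. All lay above the control range of 44.9 to 62.6 CPM, and 1 lay within the CM range. The rise was 0.82 ± 0.15 over control (log2, SE; edgeR adjusted p = 7.3e-04) and 0.50 ± 0.16 over CM (SE; edgeR adjusted p = 0.041), and the second lost its call in 9 of 21 alternatives. Without CM with neratinib PSC4 replicate 1 it was 0.34 (edgeR adjusted p = 0.15).

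Cox5a held 98.8 and 72.1 CPM in PSC4 and 68.5 and 87.4 CPM in PSC5 in CM with neratinib, and 66.0, 66.3, 62.6 and 65.5 CPM in CM. It rose by 0.36 ± 0.09 over control (log2, SE; edgeR adjusted p = 0.0063) and by 0.33 ± 0.10 over CM (SE; edgeR adjusted p = 0.031). The second lost its call in 10 of 21 alternatives, and without the 3 libraries labelled PSC4 replicate 1 it was 0.23 (edgeR adjusted p = 0.10). Cox5a was the 1 nuclear member called in 4 comparisons, since it was also lower in CM than in TGF-beta (log2 -0.31, edgeR adjusted p = 0.023). Control, CM and TGF-beta libraries serve in several of these comparisons, so the calls are not independent. Cox4i1, the widespread form of subunit IV, rose by 0.27 ± 0.07 over control (SE; edgeR adjusted p = 0.0043), from 217.5 to 262.5 CPM on average. Ndufab1, the mitochondrial acyl carrier protein and a complex I subunit, rose by 0.39, and Ndufaf4, a complex I assembly factor, by 0.38 (edgeR adjusted p = 0.0035 and 0.0032).

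Set against CM alone, which shows what neratinib changes in the same kind of medium, 6 of 90 nuclear members rose and 1 fell, beside 10.8% of all genes that rose and 9.63% that fell. These were Cox6a2, Uqcrq and Cox5a together with Ndufv3, Cox7a2l and Ndufaf4, all higher, and Ndufb3, lower, which lost its call in 11 of 21 alternatives. In all, 24 of 90 had an unadjusted p under 0.05, beside 4776 of the 13923 genes tested. With the replicate block 22 were called, 20 higher and 2 lower, beside 32.8% of all genes. Without CM with neratinib PSC5 replicate 1 edgeR called 21, and without the 3 libraries labelled PSC4 replicate 1 it called 4, the latter beside 14.2% of all genes. The count without CM PSC4 replicate 2, CM with neratinib PSC4 replicate 1 or CM with neratinib PSC5 replicate 2 was 3, and without CM PSC4 replicate 1 it was 4.

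Cox7a2l, lower in TGF-beta, was high in CM with neratinib. CM libraries held 99.8 and 103.9 CPM in PSC4 and 99.3 and 105.1 CPM in PSC5, and libraries of CM with neratinib 122.5, 128.6, 128.5 and 157.4 CPM in the same order. The groups did not overlap, and the difference was 0.39 ± 0.08 (log2, SE; edgeR adjusted p = 0.0036). Against control it was 0.19 ± 0.07 with overlapping groups (edgeR adjusted p = 0.052), and 8 of 22 alternatives called it, with adjusted p between 0.031 and 0.39 over all 22. Ndufv3, an accessory subunit beside the NADH site of complex I, held 32.5, 34.8, 35.0 and 33.0 CPM in CM and 42.4, 47.2, 45.3 and 45.2 CPM with neratinib. It rose by 0.41 ± 0.10 (log2, SE; edgeR adjusted p = 0.0082). Its rise, like that of Cox7a2l, was seen in both lines.

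Between CM and TGF-beta 5 of 90 nuclear members were higher in CM and 6 lower, beside 17.8% and 17.5% of all genes. Ndufa4 was higher by the amount given above, with Ndufs4, Ndufs7 and Ndufa3 of complex I and Sdhd, an anchor of complex II. Lower in CM were Atp5mpl (log2 -0.33 ± 0.06, SE; edgeR adjusted p = 5.0e-04), Atp5l, Cox5a, Cox7b, Uqcrc1 and Ndufa4l2. Of 21 alternatives, the call was lost in 13 for Cox7b, 9 for Ndufs7, 8 each for Atp5l and Uqcrc1, and 6 for Ndufa3. Atp5mpl held 26.7, 27.8, 23.8 and 24.98 CPM in CM and 35.7, 32.8, 31.5 and 29.7 CPM in TGF-beta, without overlap. The count was 6 without CM PSC5 replicate 1 and 7 without CM PSC4 replicate 1, TGF-beta PSC4 replicate 2 or TGF-beta PSC4 replicate 3. With the replicate block 20 nuclear members were called, 7 higher and 13 lower, beside 43.4% of all genes. The block added Atp5a1, Atp5b, Atp5f1 and Atp5g3 among those lower in CM, and it added the same 4 genes among those higher in TGF-beta than in control.

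No difference between lines was found by the test of the difference itself. In edgeR, no gene was called (0.0% of 13923) in the interaction of line with TGF-beta, with CM or with neratinib in CM, and 3, 0 and 2 members had an unadjusted p under 0.05. DESeq2 was not run on the interactions. Without the 3 libraries labelled PSC4 replicate 1, no member was called either.

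The mitochondrial genes were read next, starting with their sequences, because 7 of the 13 have near-identical nuclear copies on chromosome 1 that compete for reads. Over the bases compared, mt-Co2, mt-Co3, mt-Atp6, mt-Nd4 and mt-Nd4l were identical to their copies Gm28661, Gm28437, Gm10925, Gm28439 and Gm10222. The first 60 bases of mt-Co2, which encodes subunit 2 of complex IV, and of its copy at chr1:24614885-24615565 (GRCm38) show letters that are the same in both.
mt-Co2: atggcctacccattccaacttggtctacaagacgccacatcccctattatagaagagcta
Gm28661: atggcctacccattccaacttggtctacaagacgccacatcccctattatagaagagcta
The first 60 bases of mt-Nd3, a complex I gene, and of its copy at chr1:24612775-24613119 hold the single difference of 345 compared bases, in capitals, T3C counted from 1 at the first base of the gene.
mt-Nd3: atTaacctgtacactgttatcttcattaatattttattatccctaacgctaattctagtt
Gm28438: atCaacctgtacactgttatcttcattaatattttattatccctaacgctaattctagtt

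How counts were split did not follow identity alone. The copy took a median of 99.2% of the joint counts of mt-Co2, 93.9% for mt-Atp6 and 90.5% for mt-Co3. It took 7.96% for mt-Nd4l and 0 for mt-Nd4 (at most 1.41%), also identical to their copies over the bases compared. For mt-Co1, the most abundant member, it took 4.04%. The part compared was 681 of 684 bases for mt-Co2 and 294 of 297 for mt-Nd4l. It was only 876 of 1378 for mt-Nd4 and 492 of 1545 for mt-Co1. For mt-Nd3 the share lay between 0 and 87.5% by library. The deposited mt-Co2 values ran from 0 counts in TGF-beta PSC4 replicate 2 to 1263, with a coefficient of variation of 60.2% across all libraries, against 23.2% for gene and copy together. For mt-Nd3 these were 48.4% and 26.7%, while for mt-Nd4l (20.1% and 20.4%), mt-Nd4 (20.84% and 20.83%) and mt-Co1 (13.8% and 13.95%) they hardly differed. Among nuclear members, annotated pseudogenes took 91.5% of the joint counts of Atp5g2, 69.8% of Ndufb4, 14.8% of Atp5l and 14.1% of Ndufab1, so the levels of these genes are uncertain too.

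**Figure D3:**
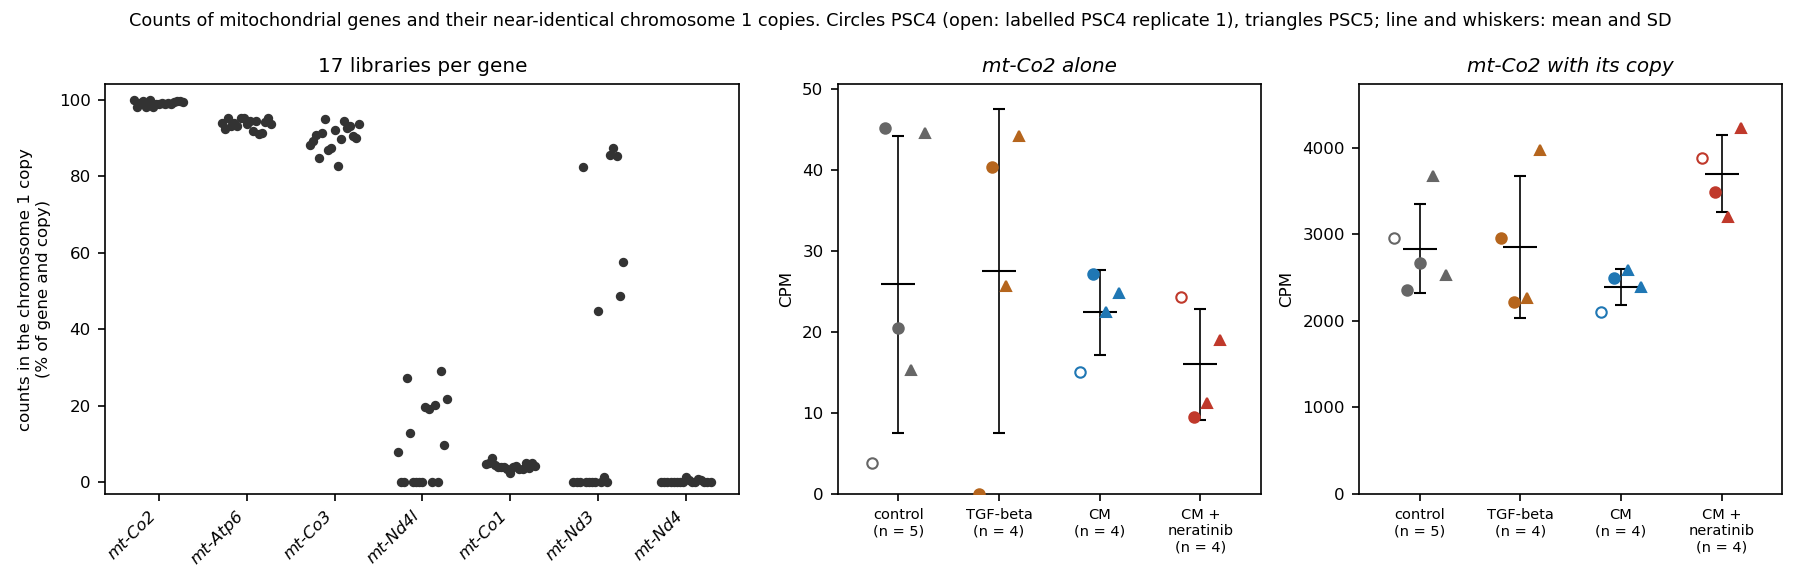
Left, share of the joint counts (y axis, percent) assigned to the chromosome 1 copy of 7 mitochondrial genes (x axis), a point per library; middle and right, CPM of mt-Co2 alone and with its copy by group, with mean and SD. The share is near 99.2% for mt-Co2 and scattered between 0 and 87.5% for mt-Nd3, and mt-Co2 with its copy lies highest in CM with neratinib.

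Summed over the 13 genes, mitochondrial transcripts made up 1.48% to 2.67% of a library's counts, and the nuclear members 0.573% to 0.725%. Libraries of CM held 17800 and 18300 summed CPM in PSC4 and 20220 and 18140 in PSC5. Libraries of CM with neratinib held 24370 and 22730 in PSC4 and 22080 and 24520 in PSC5, all above CM. Control libraries spread from 18630 to 25820 and TGF-beta libraries from 15490 to 23860, and both ranges overlapped the 2 CM groups. With the chromosome 1 copies added, CM held 24920 to 28600 and CM with neratinib 32110 to 36910, again without overlap.

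Read gene by gene, the values that make up this sum gave few calls. The 13 genes share the same libraries, so their signs do not count as 13 separate results. Between CM with neratinib and CM, 11 of 13 mitochondrial genes had a log2 fold change above 0, with a median of 0.29 against 0.00 over all genes tested. The exceptions were mt-Co2 and mt-Nd3, both with a chromosome 1 copy. For mt-Nd3 the copy took 0%, 1.46%, 0% and 85.6% of the joint counts in the CM libraries. With neratinib it took 87.5%, 85.4%, 48.8% and 57.5%, in the order PSC4 replicates 1 and 2, PSC5 replicates 1 and 2. The part of this split in the mt-Nd3 difference was not tested. Of the 13, mt-Nd1 alone was called: CM libraries held 1089, 1552, 1400 and 1205 CPM and libraries of CM with neratinib 2404, 2163, 1585 and 2485 CPM, in the order PSC4 replicates 1 and 2, PSC5 replicates 1 and 2. The groups did not overlap, and the rise was 0.72 ± 0.24 (log2, SE; edgeR adjusted p = 0.048). That call was lost with the replicate block (0.71, edgeR adjusted p = 0.054), without the 3 libraries labelled PSC4 replicate 1 (0.58, edgeR adjusted p = 0.20) and in 13 of 21 alternatives in all. Next came mt-Nd5 (0.44 ± 0.17), mt-Co1 (0.30 ± 0.11) and mt-Atp8 (0.31 ± 0.12), with edgeR adjusted p of 0.077, 0.069 and 0.089. DESeq2 called 3 of the 13, beside 25.5% of all genes.

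With gene and copy summed, an alternative added after the data were seen, 3 mitochondrial genes were called higher in CM with neratinib than in CM: mt-Nd1, mt-Co2 (0.63 ± 0.17, edgeR adjusted p = 0.018) and mt-Co3 (0.41 ± 0.12, edgeR adjusted p = 0.023). In that setting 20.45% of all genes were called, in either direction. Joint mt-Co2 held 2097, 2490, 2584 and 2385 CPM in CM and 3879, 3492, 3202 and 4226 CPM with neratinib. The groups did not overlap, while mt-Co2 alone stood at 15.1 to 27.2 CPM and 9.53 to 24.3 CPM. Joint mt-Nd3 averaged 205.2 CPM in CM and 303.0 CPM with neratinib. The difference was 0.56 ± 0.23 (log2, SE) and was not called (edgeR adjusted p = 0.093). Summing likewise made Ndufb4, a membrane-arm subunit of complex I, higher in TGF-beta than in control (0.27, edgeR adjusted p = 0.0074) and in CM with neratinib than in CM (0.38, edgeR adjusted p = 0.0041).

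In the other comparisons edgeR and DESeq2 called no mitochondrial gene. At an unadjusted p under 0.05, edgeR had 1 of 13 in TGF-beta against control, 1 in CM against control, 0 in CM with neratinib against control and 0 in CM against TGF-beta. Over the 13923 genes tested these counts were 6695, 4001, 7119 and 6170. All 13, measured in the same libraries and not separate results, had a log2 fold change below 0 in CM against control, with a median of -0.17. The lowest log2 fold change there was that of mt-Nd5, whose value in TGF-beta against control was -0.35 ± 0.16 (SE; edgeR adjusted p = 0.092). The CM libraries are shared between this comparison and that with neratinib.

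The ratio of summed nuclear to summed mitochondrial counts, which does not depend on library scaling, was 0.304 ± 0.036 in control (SD, n = 5), 0.346 ± 0.055 in TGF-beta, 0.349 ± 0.030 in CM and 0.293 ± 0.013 in CM with neratinib (SD, n = 4 each). CM libraries held 0.374, 0.335, 0.314 and 0.373, and libraries of CM with neratinib 0.308, 0.281, 0.285 and 0.300. These 2 groups did not overlap, and control, at 0.253 to 0.354, overlapped both. With members and copies summed the ratio was lower, at 0.2195 ± 0.025 in control (SD, n = 5). It was then 0.249 ± 0.040 in TGF-beta, 0.252 ± 0.021 in CM and 0.204 ± 0.005 in CM with neratinib (SD, n = 4 each). No test was made of a ratio of sums over members. Within the mitochondrial sum without copies mt-Co1 made up 42.7% to 52.8% in every library. With copies added it averaged 10420 CPM of a summed 29890 CPM in control.

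**Figure D4:**
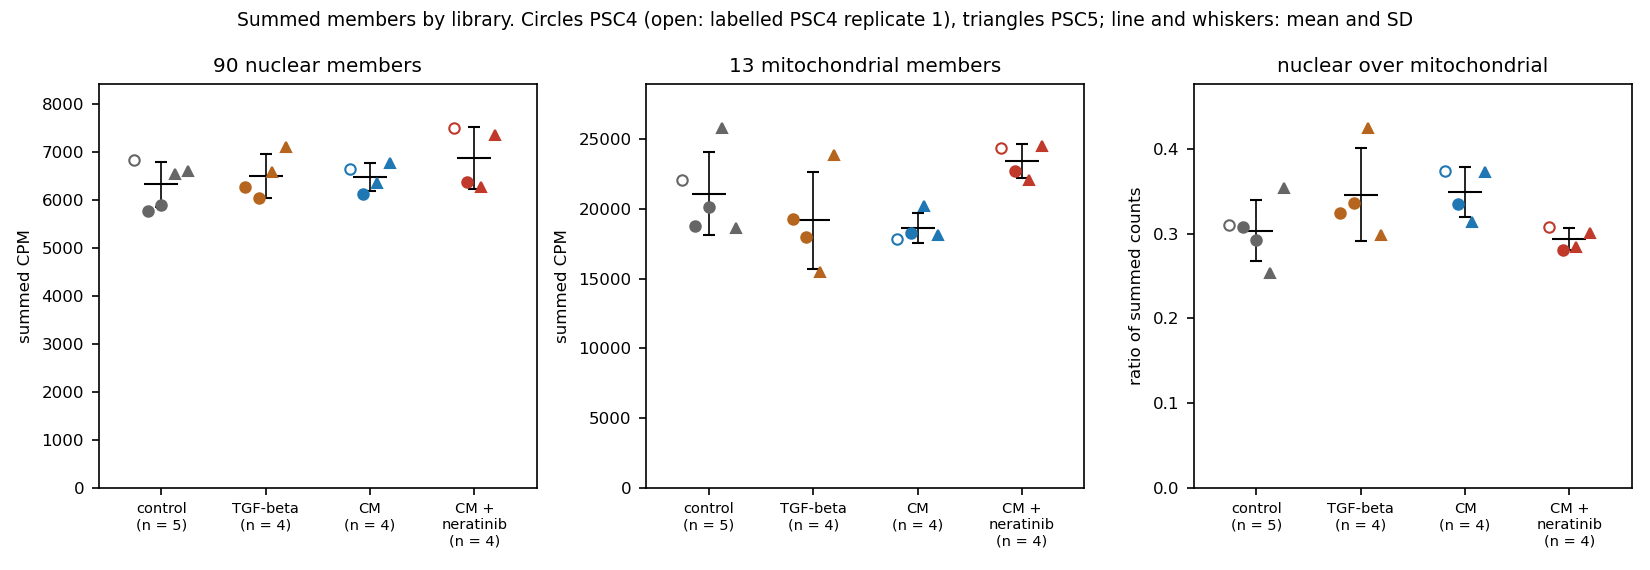
Summed CPM of 90 nuclear members, summed CPM of 13 mitochondrial members, and the ratio of their summed counts (y axes) in each library by group (x axis), with mean and SD. CM with neratinib lies above CM in the mitochondrial sum (22080 to 24520 against 17800 to 20220 CPM) and below it in the ratio.

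Other genes of the pathway were read from lists. Beside them, the shares of all genes that rose and fell were 19.7% and 20.5% in TGF-beta against control, 22.2% and 20.9% in CM with neratinib against control, and 10.8% and 9.63% in CM with neratinib against CM. In CM against control these shares were 7.05% and 7.14%. Of 39 assembly factors outside the symbol rule, 4 rose and 6 fell in TGF-beta against control, and 7 rose and 5 fell in CM with neratinib against control. Both included Cox17, a copper chaperone of complex IV, which rose by 0.65 ± 0.10 and 0.49 ± 0.10 (log2, SE). Cox17 also rose in CM against control, by 0.36 ± 0.10. Of 78 mitochondrial ribosomal protein genes 7 rose and 5 fell in TGF-beta, and 15 rose and 4 fell in CM with neratinib against control. Of 18 genes of the citrate cycle and pyruvate dehydrogenase, 6 rose and 2 fell in TGF-beta, and 4 rose and 1 fell in CM with neratinib against control. Idh3a, a subunit of the NAD-dependent isocitrate dehydrogenase, rose by 0.54 ± 0.08 in TGF-beta. Genes named from these lists were picked after their values were seen.

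Of 21 genes for electron carriers and nucleotide exchange, 6 rose and 4 fell in TGF-beta, and 5 rose and 1 fell in CM with neratinib against control. The cytochrome c gene Cycs rose in both, by 0.41 ± 0.15 and 0.40 ± 0.15. Coq8a, of ubiquinone synthesis, fell by 1.81 and 1.39 on the log2 scale, and by 0.76 in CM against control. Of 17 genes of mitochondrial RNA processing and stability, 5 were higher and 2 lower in CM with neratinib than in CM, with a median log2 fold change of 0.24. Of 16 genes of mitochondrial transcription and replication, 1 was lower there, at a median of 0.01. Of 15 tested regulators of mitochondrial biogenesis, 3 rose and 3 fell in TGF-beta, and 3 rose and 4 fell in CM with neratinib against control. In CM against control 1 rose and 1 fell. Hif1a, the oxygen-regulated factor, rose against control by 0.56 ± 0.14 in TGF-beta, 1.20 ± 0.14 in CM and 1.85 ± 0.14 in CM with neratinib (log2, SE). Ppargc1a, a coactivator known to drive respiratory gene expression, fell by 1.495 ± 0.18 in TGF-beta and by 0.60 ± 0.17 in CM with neratinib against control (log2, SE).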

How the data were processed

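Per the labels, mRNA libraries were made from 17 samples of stellate cells. The authors deposited expected counts for each Ensembl gene, not scaled, made with Salmon 1.4.0 on GRCm38, per the submitters' processing notes. The annotation release and the strand setting are not given in the sources used here. Counts were rounded, and symbols and positions came from GENCODE M21. Genes were tested with edgeR 4.0.16 (R 4.3.3), with TMM factors, filterByExpr by group and a model of group and line over all libraries, and DESeq2 1.42.0 was an alternative. CPM were scaled by the TMM factors. Adjusted p is Benjamini-Hochberg over 13923 genes. Copies were annotated pseudogenes that BLAST matched at 95% identity or more over at least 200 bases. The edgeR step was tested on simulated data. Other alternatives were another scaling, no filter, no line term, the groups compared alone, each library left out, each medium code alone and, added after the data were seen, members summed with copies and other treatments of PSC4 replicate 1.

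Members and lists were chosen with earlier results of these data known. Named by rule were the 13 mitochondrial genes, the paired isoforms of complex IV, 10 core subunits and, for each comparison, up to 5 called members that rose most and up to 5 that fell most, provided the higher group averaged 10 CPM or more. Same-numbered libraries of a line share a passage in the labels. After removal of group means all 22 such pairs between groups correlated above 0.1 (lowest 0.12, median 0.299). Of 32 pairs with other numbers of the same line, 14 did so too (highest 0.613, median -0.076). Another 14 of those 32 joined PSC4 replicate 1 to other PSC4 libraries, at -0.536 to -0.181. The low median thus rests in part on the libraries labelled PSC4 replicate 1. The numbers were treated as a possible pairing in the replicate block alone. The main calls come from the fit of group and line, which leaves this pairing out.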

Additional observations from a re-analysis of the deposited data

Results flagged for a closer look

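For 50 named members and the nuclear to mitochondrial ratio, 204 sets of values, each of a gene in a group, were searched for a library far from the others by Dixon's criterion, which chance alone meets in about 1 in 20. It was met in 7. Ndufa4l2 stood at 0.953 CPM in CM PSC4 replicate 2 (next library 0.306) and at 1.05 CPM in CM with neratinib PSC4 replicate 2 (next 0.649). Ndufb2 was at 26.9 CPM in CM with neratinib PSC5 replicate 1 (next 23.8), and Ndufs1 at 93.2 CPM in control PSC4 replicate 1 (next 86.1). In TGF-beta PSC5 replicate 2, mt-Atp8 was at 535.8 CPM (next 375.7) and mt-Co1 at 10690 CPM (next 8240), and in TGF-beta PSC5 replicate 1 mt-Nd5 was low at 955.4 CPM (next 1664).

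Counts assigned to the chromosome 1 copies of mitochondrial genes, which none of the comparisons used as deposited, made up between 0.646% and 1.22% of a library.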

How the results depend on the processing

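No called result changed direction under any alternative. Of 38 called results of single members, 14 kept their call under every alternative run, among them Ndufa4 in both its comparisons, Cox6a2 and Uqcrq in CM with neratinib against control, and Cox5a and Cox7a2l in TGF-beta. Ndufa4l2, Cox7a1 and Cox6b2 rest on few counts, which limits their precision. The cause of the changes below was not tested.

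Nuclear members called in TGF-beta against control (16) were 9 with no low-count filter, 31 with the replicate block, and 25 with the 3 libraries labelled PSC4 replicate 1 either removed or counted with PSC5. The share of all genes called was 40.2% in the fit of group and line, and 22.7%, 50.9%, 49.4% and 48.1% in these settings. In CM against control (0) they were 3 with upper-quartile factors, DESeq2, the replicate block, only the 2 groups or those libraries moved to PSC5, and 2 after their removal. Of all genes 14.2% were called without these changes, and 15.0%, 19.4%, 23.3%, 20.6%, 21.4% and 18.1% with them, in that order. In CM with neratinib against control (20) nuclear members called were 10 with medium T8 alone, and 16 (9 higher, 7 lower) with upper-quartile factors. The share of all genes went from 43.1% to 31.4% and 42.6%. In CM with neratinib against CM (7) nuclear members called were 14 with DESeq2, 22 with the replicate block, 2 with only the 2 groups, 4 with those libraries removed, 15 with them counted with PSC5, 2 with T6 alone and 0 with T8 alone. The share of all genes called moved as well, from 20.5% to 25.5%, 32.8%, 4.54%, 14.2%, 29.3%, 8.82% and 1.31%, in that order. In CM against TGF-beta (11) nuclear members called were 4 with no filter, 20 with the replicate block, 17 with those libraries counted with PSC5, 4 with T6 and 3 with T8. All genes went from 35.3% called to 19.5%, 43.4%, 42.3%, 30.4% and 25.4%. Mitochondrial genes called were 1 in CM against control with only the 2 groups, 1 in CM with neratinib against control with copies summed, and, in CM with neratinib against CM (1), 0 with upper-quartile factors, only the 2 groups, those libraries removed, T6 or T8, and 3 with DESeq2, copies summed or those libraries counted with PSC5. With copies summed 43.1% of all genes were called in CM with neratinib against control and 20.45% against CM. Upper-quartile factors gave 20.2% against CM.

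Leaving out 1 library gave 9 to 15 nuclear calls in TGF-beta against control, 15 to 30 in CM with neratinib against control, 3 to 21 against CM, and 6 to 9 in CM against TGF-beta. Mitochondrial calls were 0 to 1 in the first 3 of these and 0 to 2 in the last. The shares of all genes called with 1 library left out are not given here. The log2 nuclear to mitochondrial ratio, CM with neratinib minus CM, was -0.248, and -0.092 as a difference of mean log2 CPM. With 1 library left out, the ratio for CM with neratinib minus control ran from -0.106 to 0.015 and that for CM minus TGF-beta from -0.046 to 0.125, so neither sign held. Upper-quartile factors put the median log2 fold change of all genes no lower than -0.0687 and moved the share of calls that were higher from 49.7% to 37.5% in CM against control and from 51.4% to 41.1% in CM with neratinib against control. With the replicate block mt-Nd1 was lost (0.71, edgeR adjusted p = 0.054), and no other call named here ended.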
